A study of Mus musculus with 3 samples.

Results

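10 genes of hepatic fatty acid synthesis were followed through single liver cells of mice with 3 Adar1 genotypes. They were Srebf1, the gene of the lipogenic transcription factor SREBP1, and Mlxipl, Acly, Acaca, Fasn, Elovl6, Scd1, Me1, Thrsp and Pnpla3, taken by exact match of their gene symbols in the deposited feature list. All 10 were found among the 32285 features, and 9 of the 10 had at least 20 unique molecular identifiers (UMIs) in hepatocyte-like barcodes over the 3 libraries. Levels were read as UMIs in hepatocyte-like barcodes, expressed as counts per 1000000 UMIs of that class (CPM), and also apart in barcodes below and at or above 0.5% of UMIs from the nuclear RNAs Malat1 and Neat1. Among the 9 genes with at least 20 UMIs, the ratio of flox/flox to each other library was farthest from 1 for Srebf1, at 27.4 CPM in flox/flox, against 75.1 CPM in wt/flox and 73.0 CPM in wt/wt. The enzyme genes that SREBP1 is known to drive did not stand apart in the same way. Fasn, for example, had 228 CPM in flox/flox, 250 CPM in wt/flox and 223 CPM in wt/wt.

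The liver makes fatty acids from citrate that leaves the mitochondria. ATP citrate lyase splits it to acetyl-CoA, acetyl-CoA carboxylase makes malonyl-CoA, and fatty acid synthase joins these units with NADPH as the reductant, after which elongases and desaturases finish the chains. In hepatocytes, insulin raises SREBP1 and glucose activates ChREBP, the product of Mlxipl, and these 2 transcription factors switch on the enzymes of the pathway. SREBP1 is made as a precursor in the membrane of the endoplasmic reticulum and acts only after it has been cut and has entered the nucleus, so its mRNA level and its activity are different quantities.

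The 3 libraries came from livers of male C57BL/6 mice aged 9 weeks. The flox/flox library had the genotype Ifih1-/- Adar1flox/flox Alb-Cre+, the wt/flox library carried Adar1wt/flox on the same background, and the wt/wt library carried Adar1wt/wt. All 3, controls included, lacked Ifih1, which encodes MDA5, a cytosolic sensor of double-stranded RNA, and carried Cre under the albumin promoter, which is active in hepatocytes and not in most other liver cells. The study compared them for the effect of losing hepatocyte ADAR1, an editor of double-stranded RNA, where MDA5 is absent. Each genotype had 1 library, the number of animals behind a library is not given in the sources used here, and no difference below has a replicate check or a test. All intervals are exact 95% intervals for counting error only, and a difference outside them can still be one between animals, collection times or preparations.

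Hepatocyte-like barcodes numbered 7832 in flox/flox, 7348 in wt/flox and 8253 in wt/wt, out of 9772, 9920 and 9878 kept barcodes in the same order, and held between 7174406 and 8255829 UMIs a library with a median of 904, 863 and 825 UMIs a barcode. All 12 hepatocyte markers were seen in each library, and together they made 70098 CPM in flox/flox, 77106 CPM in wt/flox and 81340 CPM in wt/wt. Their presence does not set the class apart. In the T-like cluster 11 of the 12 were also seen in at least 50% of barcodes. Adar itself (ENSMUSG00000027951, chromosome 3) had 35.4 CPM in the library labelled flox/flox, 17.3 CPM in wt/flox and 10.3 CPM in wt/wt. That order goes against the label, but the floxed exons are not given in the sources used here and a 3' tag outside them checks nothing, so flox/flox means the library labelled flox/flox throughout. Ifih1 had 0 UMIs in flox/flox, 1 in wt/flox and 0 in wt/wt. Between 20 and 32 barcode sequences were shared by any pair of libraries. The hepatocyte-like barcodes of flox/flox lay mostly in clusters 7, 4, 5 and 10, those of wt/flox in clusters 9, 2, 1, 10 and 6, and those of wt/wt in clusters 9, 0, 2 and 10, so that wt/flox and wt/wt shared clusters 9, 2 and 10, and flox/flox shared cluster 10 with both. Cluster 7 was led by interferon-stimulated genes, cluster 4 by mitochondrial genes and cluster 10 by Neat1 and other nuclear transcripts, with Mlxipl among its 10 leading genes. The median mitochondrial share of UMIs was 7.87% in flox/flox, 4.17% in wt/flox and 5.01% in wt/wt. Among markers of other cells, the 8 bile duct markers summed to 122 CPM in flox/flox, 56.0 CPM in wt/flox and 17.1 CPM in wt/wt, nearly all of it Spp1 at 97.4, 24.1 and 5.75 CPM and Sox9 at 24.1, 29.3 and 10.3 CPM, while Epcam and Krt19 stayed at or under 1.12 CPM. The 6 erythroid markers were lowest in flox/flox, at 39.2 CPM, against 130 CPM in wt/flox and 98.5 CPM in wt/wt. Most of that was Alas2, at 38.5, 107 and 92.1 CPM in the same order. The part of these differences in the results was not tested.

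The start regions of the regulators Srebf1 and Mlxipl, of the pathway's central enzyme gene Fasn, and of Thrsp, which was higher in flox/flox where Srebf1 was lower, are shown because their levels carry the findings. They are RefSeq windows on GRCm38.p6, written 5′ to 3′ on the gene's strand from 250 bases before to 50 bases after an annotated start. The table held 13 windows for 9 of the 10 genes, with none printed for Scd1. Capitals mark matches, on either strand, to CCAAT, which reads ATTGG from the other strand, to the SREBP element TCACNCCAC and to the E-box CACGTG, which USF and ChREBP proteins can bind.
Srebf1 window 1, chr11:60222532-60222831, strand -: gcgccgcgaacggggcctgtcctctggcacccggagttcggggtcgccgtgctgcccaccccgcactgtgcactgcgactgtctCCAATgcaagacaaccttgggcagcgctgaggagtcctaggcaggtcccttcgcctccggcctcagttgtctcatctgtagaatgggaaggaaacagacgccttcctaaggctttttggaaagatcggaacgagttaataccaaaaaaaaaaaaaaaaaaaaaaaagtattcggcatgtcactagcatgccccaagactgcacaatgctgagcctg
Srebf1 window 2, chr11:60220578-60220877, strand -: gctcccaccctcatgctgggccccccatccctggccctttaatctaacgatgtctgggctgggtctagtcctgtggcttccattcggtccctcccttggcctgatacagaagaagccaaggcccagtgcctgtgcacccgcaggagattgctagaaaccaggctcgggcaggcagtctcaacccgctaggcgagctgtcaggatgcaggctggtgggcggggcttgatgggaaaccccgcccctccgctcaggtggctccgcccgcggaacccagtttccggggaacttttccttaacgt
Srebf1 window 3, chr11:60210422-60210721, strand -: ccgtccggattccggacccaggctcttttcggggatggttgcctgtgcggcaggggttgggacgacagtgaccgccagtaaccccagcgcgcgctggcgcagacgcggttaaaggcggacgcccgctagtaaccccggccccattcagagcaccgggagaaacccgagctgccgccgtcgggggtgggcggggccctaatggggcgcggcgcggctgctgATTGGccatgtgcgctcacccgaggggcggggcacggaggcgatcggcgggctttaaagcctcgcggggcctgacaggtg
Mlxipl window 2, chr5:135089640-135089939, strand +: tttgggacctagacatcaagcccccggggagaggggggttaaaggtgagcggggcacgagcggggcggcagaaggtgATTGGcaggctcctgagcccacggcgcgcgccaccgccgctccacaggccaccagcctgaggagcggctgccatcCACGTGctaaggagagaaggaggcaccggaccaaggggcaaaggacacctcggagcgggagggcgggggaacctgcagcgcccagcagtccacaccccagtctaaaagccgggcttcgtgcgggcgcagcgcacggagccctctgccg
Mlxipl window 1, chr5:135106641-135106940, strand +: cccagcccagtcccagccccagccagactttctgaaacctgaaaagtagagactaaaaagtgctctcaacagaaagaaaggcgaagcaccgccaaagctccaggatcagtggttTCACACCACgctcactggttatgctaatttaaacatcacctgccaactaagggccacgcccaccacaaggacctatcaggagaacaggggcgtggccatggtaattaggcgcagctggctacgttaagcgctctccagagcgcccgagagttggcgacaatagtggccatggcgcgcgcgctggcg
Fasn window 1, chr11:120824498-120824797, strand -: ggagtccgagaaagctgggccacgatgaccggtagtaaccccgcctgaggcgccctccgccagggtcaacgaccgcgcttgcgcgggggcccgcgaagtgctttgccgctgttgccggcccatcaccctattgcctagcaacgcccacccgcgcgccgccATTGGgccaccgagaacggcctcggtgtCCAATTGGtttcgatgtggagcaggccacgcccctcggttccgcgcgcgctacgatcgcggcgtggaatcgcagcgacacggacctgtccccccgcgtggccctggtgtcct
Thrsp window 1, chr7:97417501-97417800, strand -: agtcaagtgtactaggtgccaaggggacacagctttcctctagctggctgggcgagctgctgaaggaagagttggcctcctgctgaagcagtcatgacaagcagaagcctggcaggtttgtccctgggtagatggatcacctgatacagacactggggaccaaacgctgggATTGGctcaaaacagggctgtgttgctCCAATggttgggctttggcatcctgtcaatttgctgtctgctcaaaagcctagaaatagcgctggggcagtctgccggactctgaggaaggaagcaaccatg
Srebf1 has 3 windows. The gene is known for 2 promoters, an upstream one for SREBP1a and a downstream one for SREBP1c, the main form in liver. GENCODE lists 12 Srebf1 transcripts with 3 distinct starts but 2 distinct 3' ends, so these 3' counts do not tell the starts apart and every Srebf1 value below covers all of them. The exact letters TCACNCCAC were in 1 of the 13 windows, that of Mlxipl, and in 1.24% of all 32851 windows of this length. CACGTG was also in 1 of the 13, again of Mlxipl, and in 7.15% of all windows. CCAAT was in 8 of the 13 windows and in 37.4% of all, with overlapping matches on both strands in the Fasn window. These matches describe letters and not bound sites.

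With a threshold of 1.5-fold in place of a test, 0 of the 10 genes were higher and 2 were lower in flox/flox than in wt/wt, Srebf1 and Mlxipl. Over all 11356 genes with at least 20 UMIs, 14.3% were higher and 7.42% were lower by this threshold. Thrsp and Elovl6 lay just short of it, and 1 or 2 genes, always among this pair, were higher in 8 other settings, while Srebf1 alone was lower in 3. In flox/flox over wt/flox, Thrsp was higher and Srebf1 lower, 1 gene each way, against 13.4% higher and 9.72% lower over all genes. In wt/flox over wt/wt, 0 genes were higher and 1, Scd1, was lower, against 9.94% and 6.96% over all genes. The median log2 ratio of the 9 measured genes was 0.03 for flox/flox over wt/wt, 0.19 for flox/flox over wt/flox and -0.19 for wt/flox over wt/wt, beside 0.08, 0.04 and 0.04 over all genes in the same order. The comparisons share libraries, so their values are set side by side and are not independent.

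**Figure D1:**
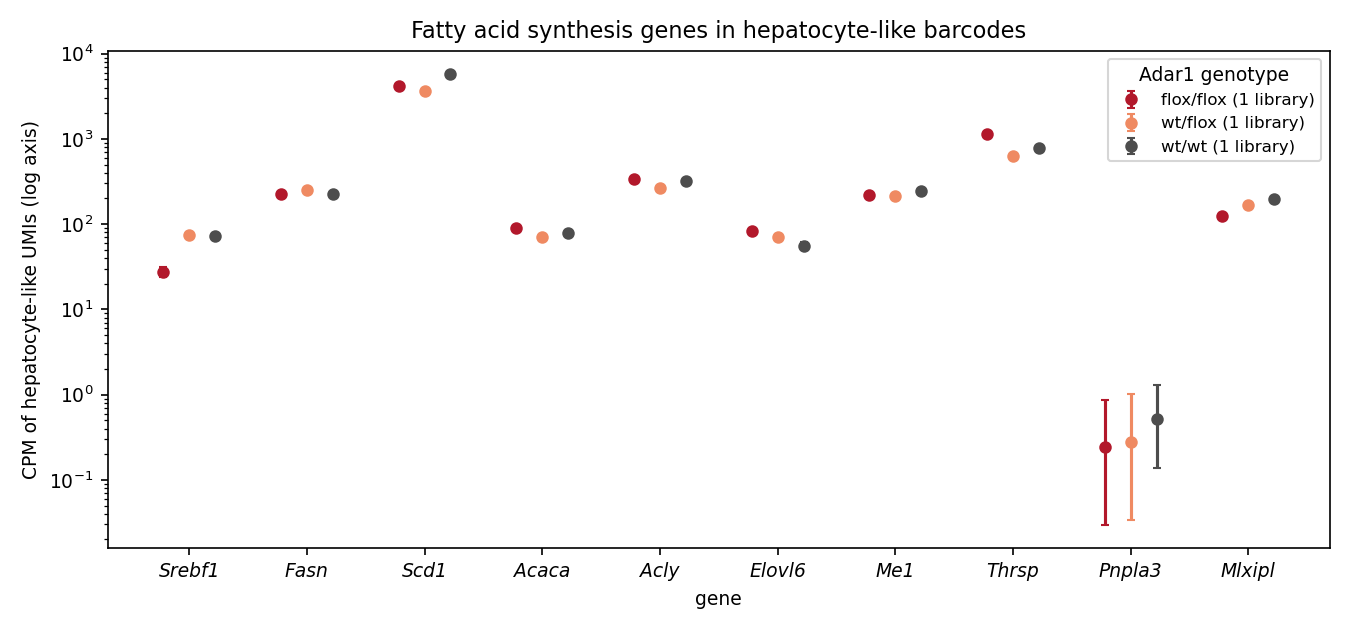
Level of each gene in hepatocyte-like barcodes of the 3 libraries, in CPM on a log axis; points are 1 library each and bars are exact Poisson 95% intervals for counting error. Srebf1 is the gene whose flox/flox point, at 27.4 CPM, lies farthest below the other libraries, and Pnpla3 rests on 2, 2 and 4 UMIs.

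Srebf1 (ENSMUSG00000020538, chr11:60199089-60222581, minus strand, mm10) was counted 226 times in flox/flox, 539 times in wt/flox and 572 times in wt/wt. Its level was 27.4 CPM (23.9 to 31.2) in flox/flox, 75.1 CPM (68.9 to 81.7) in wt/flox and 73.0 CPM (67.2 to 79.3) in wt/wt. The flox/flox interval lay below both others, and those of wt/flox and wt/wt overlapped. Against wt/wt the flox/flox level was 2.67-fold lower, at -1.42 on the log2 scale (-1.64 to -1.19), and against wt/flox 2.74-fold lower, at -1.46 (-1.69 to -1.23). The ratio of wt/flox over wt/wt stood at 0.04 (-0.13 to 0.21). In barcodes of at least 2000 UMIs the ratio of flox/flox was nearer to 0, at -1.04 over wt/flox and -0.79 over wt/wt. The share of barcodes with a Srebf1 UMI was 2.87% in flox/flox, 7.05% in wt/flox and 6.63% in wt/wt. In the 2906, 2315 and 2376 barcodes of at least 1000 UMIs, each thinned to 1000, it was 2.72%, 7.95% and 7.03% in the same order. The shallower barcodes left out numbered 4926, 5033 and 5877.

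Mlxipl (ENSMUSG00000005373, chr5:135089890-135138382, plus strand) encodes ChREBP, the glucose-responsive partner of SREBP1 in this pathway. It had 1038 UMIs in flox/flox, 1212 in wt/flox and 1546 in wt/wt, or 126 CPM (118 to 134), 169 CPM (160 to 179) and 197 CPM (188 to 208). The 3 intervals did not overlap, and the levels ran in the order of the floxed alleles, lowest in flox/flox. The log2 ratio was -0.65 (-0.77 to -0.54) in flox/flox over wt/wt, -0.43 (-0.55 to -0.31) over wt/flox and -0.22 (-0.33 to -0.12) in wt/flox over wt/wt. With the barcodes limited to at most 10% mitochondrial UMIs, or to at least 2000 UMIs, the log2 ratio of flox/flox over wt/wt was -0.50 or -0.44 and no longer past 1.5-fold.

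The 3 enzyme genes from citrate to palmitate differed little. Acly (ENSMUSG00000020917, chr11:100476353-100528000, minus strand), the citrate-splitting lyase, had 338 CPM (326 to 351) in flox/flox, 265 CPM (253 to 277) in wt/flox and 320 CPM (308 to 333) in wt/wt. The wt/flox library was thus the lowest, with a log2 ratio of -0.27 over wt/wt, while flox/flox stood at 0.35 (0.26 to 0.43) over wt/flox and 0.08 (0.00 to 0.16) over wt/wt. Acaca (ENSMUSG00000020532, chr11:84129672-84401651, plus strand), the carboxylase that makes malonyl-CoA, had 91.2 CPM (84.8 to 98.0) in flox/flox, 69.8 CPM (63.8 to 76.2) in wt/flox and 79.4 CPM (73.3 to 85.9) in wt/wt. It was again lowest in wt/flox, and flox/flox stood at 0.39 over wt/flox and 0.20 over wt/wt on the log2 scale. Fasn (ENSMUSG00000025153, chr11:120805846-120824547, minus strand), the synthase itself, had 1886 UMIs in flox/flox, 1795 in wt/flox and 1747 in wt/wt, or 228 CPM (218 to 239), 250 CPM (239 to 262) and 223 CPM (213 to 234). The interval of its log2 ratio of flox/flox over wt/wt, -0.06 to 0.13 around 0.03, leaves out a fall of the size seen for Srebf1 as far as counting error goes.

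Elovl6 and Scd1 act on the finished palmitate, by elongation to stearate and by desaturation to oleate and palmitoleate. Elovl6 (ENSMUSG00000041220, chr3:129532355-129638495, plus strand) had 83.5 CPM (77.3 to 89.9) in flox/flox, 70.2 CPM (64.2 to 76.7) in wt/flox and 56.1 CPM (50.9 to 61.6) in wt/wt. It ran opposite to Mlxipl, highest in flox/flox, and stood at 0.57 (0.40 to 0.75) against wt/wt on the log2 scale, which at 1.49-fold was just under the threshold. It was past the threshold in 5 of 13 other settings. Among these were 0.76 in barcodes of at least 1000 UMIs, thinned to 1000, and 1.72 in those of at least 2000 UMIs. At the latter depth wt/wt held 314650 UMIs, against 7830261 in the main setting, so the 1.72 rests on far fewer UMIs. Scd1 (ENSMUSG00000037071, chr19:44394455-44407879, minus strand) had 4202 CPM (4158 to 4246) in flox/flox, 3672 CPM (3628 to 3717) in wt/flox and 5818 CPM (5765 to 5872) in wt/wt. Both libraries with a floxed allele were below wt/wt, by a log2 ratio of -0.47 for flox/flox and -0.66 for wt/flox, and flox/flox was above wt/flox by 0.19. In barcodes of at least 2000 UMIs, which left 376 in flox/flox, 101 in wt/flox and 118 in wt/wt, the sign of Scd1 in flox/flox over wt/wt was the opposite, at 0.11, and wt/flox stood at -0.30 over wt/wt, short of 1.5-fold.

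Me1 and Thrsp serve the pathway from its side. Me1 (ENSMUSG00000032418, chr9:86581371-86695953, minus strand), cytosolic malic enzyme and a source of NADPH, had 221 CPM (211 to 232) in flox/flox, 213 CPM (202 to 224) in wt/flox and 242 CPM (231 to 253) in wt/wt, a span within 1.5-fold. Thrsp (ENSMUSG00000035686, chr7:97412938-97417730, minus strand), the Spot 14 gene that thyroid hormone and carbohydrate feeding are known to raise, had 9538 UMIs in flox/flox, 4460 in wt/flox and 6043 in wt/wt. Its level was 1155 CPM (1132 to 1179) in flox/flox, 622 CPM (604 to 640) in wt/flox and 772 CPM (752 to 791) in wt/wt. The flox/flox library was highest, with a log2 ratio of 0.89 (0.84 to 0.95) over wt/flox, 1.86-fold, and 0.58 (0.54 to 0.63) over wt/wt, which was 1.497-fold and so just short of the threshold, with 0.24 to 0.67 over 13 other settings. The share of barcodes with a Thrsp UMI was 64.6% in flox/flox, 42.8% in wt/flox and 48.6% in wt/wt.

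Pnpla3 (ENSMUSG00000041653, chr15:84167837-84187236, plus strand), a lipid droplet protein gene that SREBP1c is known to raise in mouse liver, had 2 UMIs in flox/flox, 2 in wt/flox and 4 in wt/wt. A difference in it was not detectable at this depth. The upper limit of its level was 0.875 CPM in flox/flox, 1.01 CPM in wt/flox and 1.31 CPM in wt/wt.

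**Figure D2:**
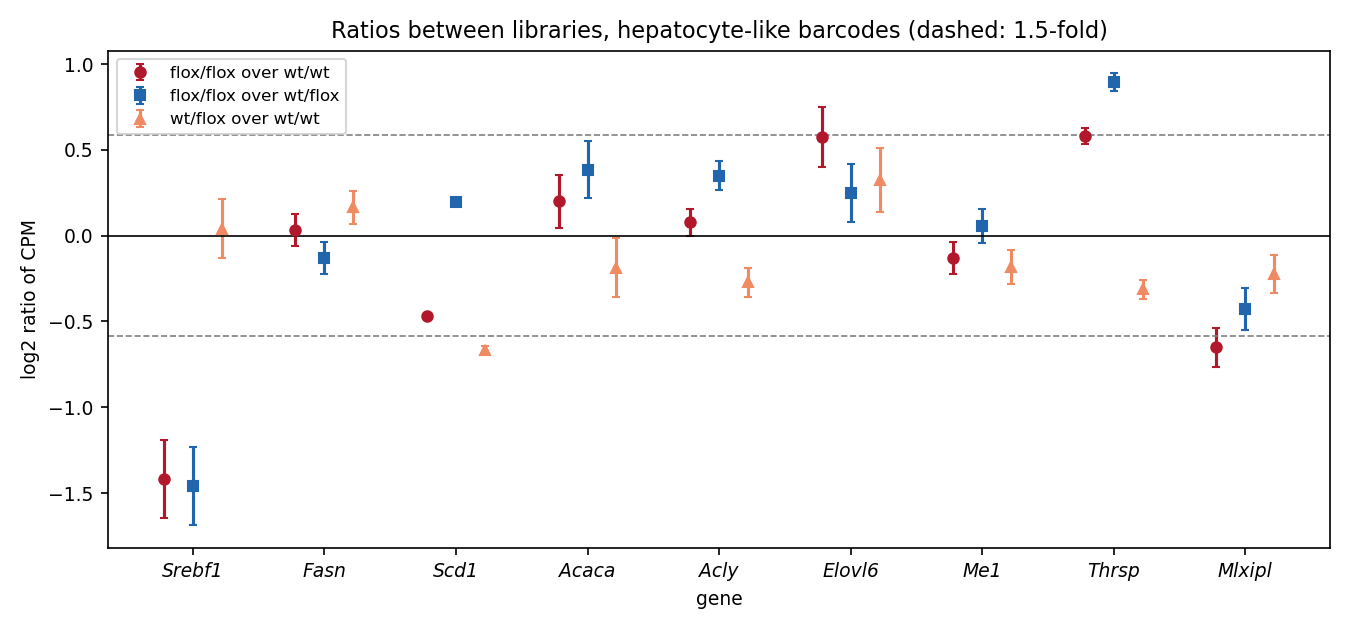
Log2 ratios of CPM for the 9 genes with at least 20 UMIs, in 3 comparisons of libraries, with exact 95% intervals for counting error; dashed lines mark 1.5-fold either way. Srebf1 lies at -1.42 and -1.46 in both comparisons of flox/flox, whereas Thrsp lies at 0.58 and 0.89 and Fasn at 0.03 and -0.13.

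Summed over the 10 genes, the level was 6473 CPM in flox/flox, 5406 CPM in wt/flox and 7782 CPM in wt/wt. Scd1 sets most of that sum. Without it, the other 9 genes summed to 2271 CPM in flox/flox, 1734 CPM in wt/flox and 1963 CPM in wt/wt, so that the log2 ratio of flox/flox over wt/wt was -0.27 with Scd1 and 0.21 without it. In barcodes of at least 2000 UMIs the ratio with Scd1 had the opposite sign, at 0.14. For flox/flox over wt/flox it was 0.26 with Scd1 and 0.39 without, and for wt/flox over wt/wt -0.53 and -0.18.

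The split by Malat1 and Neat1, long noncoding RNAs that stay in the nucleus, separated the genes. Barcodes with at least 0.5% of UMIs from this pair numbered 1451 in flox/flox, 1291 in wt/flox and 1395 in wt/wt. They held 21.9%, 19.1% and 18.7% of hepatocyte-like UMIs, but 69.3%, 66.1% and 67.9% of the Mlxipl UMIs. Mlxipl had 397 CPM there against 49.5 CPM in the other barcodes in flox/flox, 584 against 70.8 CPM in wt/flox, and 715 against 78.1 CPM in wt/wt. Its log2 difference between the 2 kinds of barcode was 3.00 (2.81 to 3.20) in flox/flox, 3.04 (2.87 to 3.22) in wt/flox and 3.19 (3.04 to 3.35) in wt/wt.

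No other gene of the 9 with at least 20 UMIs came near that, though several leaned to one side. Srebf1, Acaca and Elovl6 were higher in the Malat1-rich barcodes of all 3 libraries, by log2 differences of 0.46 to 0.74 for Srebf1, 0.68 to 1.10 for Acaca and 0.77 to 0.86 for Elovl6. Scd1 and Me1 were lower in them in all 3, by -0.41 to -0.22 and -0.67 to -0.29. Fasn and Acly were lower in them in flox/flox, at -0.31 and -0.36, and in wt/wt, at -0.40 and -0.43, but higher in wt/flox, at 0.29 and 0.22. Thrsp had -0.08 in flox/flox, 0.70 in wt/flox and 0.36 in wt/wt.

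The Srebf1 difference between libraries was of like size on both sides. In barcodes under 0.5% it had 24.1 CPM in flox/flox, 70.1 CPM in wt/flox and 64.9 CPM in wt/wt, which put flox/flox at -1.43 (-1.71 to -1.16) against wt/wt on the log2 scale. In barcodes at or over 0.5% it had 39.2 CPM in flox/flox, 96.3 CPM in wt/flox and 108 CPM in wt/wt, or -1.47 (-1.89 to -1.06). For Mlxipl the ratio of flox/flox over wt/wt was -0.66 under 0.5% and -0.85 at or over it. Fasn depended on the side. At or over 0.5% it had 193 CPM in flox/flox, 293 CPM in wt/flox and 177 CPM in wt/wt, whereas under 0.5% it had 239, 240 and 234 CPM in the same order of libraries. Its log2 ratio of flox/flox over wt/flox was -0.61 (-0.82 to -0.40) at or over 0.5% and -0.01 (-0.11 to 0.10) under it. Thrsp in flox/flox over wt/flox was 0.29 at or over 0.5% and 1.07 under it. Between 0.4% and 0.6% lay 501 barcodes in flox/flox, 322 in wt/flox and 282 in wt/wt.

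**Figure D3:**
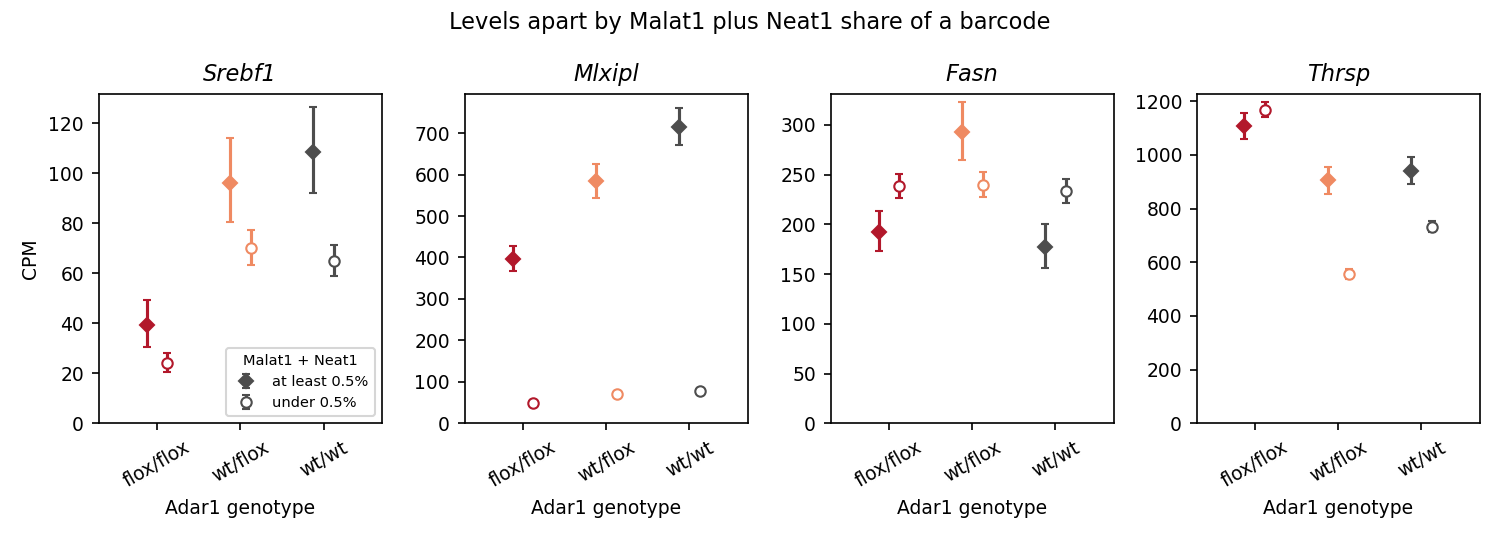
Levels of 4 genes in CPM (linear axis from 0) in barcodes with at least 0.5% of UMIs from Malat1 plus Neat1 (filled diamonds) and under 0.5% (open circles), by library, with exact Poisson 95% intervals. Srebf1 is lowest in flox/flox on both sides, at 39.2 and 24.1 CPM, and Mlxipl is several-fold higher in the filled points of every library.

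Since flox/flox lay mostly in other clusters than wt/flox and wt/wt, the ratios were also taken inside each of the 8 clusters that held at least 100 barcodes of every library. The Srebf1 log2 ratio of flox/flox over wt/wt lay between -2.43 and -1.16 and that over wt/flox between -2.21 and -1.08, below 0 in 8 of 8 clusters each. In clusters 0, 2 and 9 flox/flox held only 6, 3 and 3 Srebf1 UMIs. The interval over wt/wt in cluster 2 took in 0 (-3.82 to 0.08). The clusters were made with all genes, these included, so they are a way of matching barcodes and no test. Thrsp was above 0 in 8 of 8 clusters, between 0.25 and 0.73 over wt/wt and between 0.28 and 1.16 over wt/flox. Elovl6 over wt/wt was above 0 in 8 of 8, between 0.26 and 1.25, but its interval left out 0 only in clusters 0 and 10. The 1.25, in cluster 7, rested on 4 UMIs in wt/wt (-0.13 to 3.14). Scd1 over wt/wt was below 0 in 8 of 8, between -0.80 and -0.42, and Mlxipl likewise, between -0.93 and -0.06. The Mlxipl interval left out 0 only in clusters 4, 5, 6 and 10. Fasn over wt/wt ranged from -0.01 to 0.59 and Acly from -0.24 to 0.32, with both signs among the clusters.

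Hepatocytes differ along the lobule, and barcodes were ordered within each library by the share of 10 pericentral among 20 zonation genes and cut into terciles. Few UMIs a barcode make this order coarse, and 1766 barcodes in flox/flox, 1308 in wt/flox and 1932 in wt/wt lay within 2 percentage points of a boundary. Scd1 was higher in the pericentral than in the periportal tercile of each library, by log2 differences of 0.22 in flox/flox, 0.17 in wt/flox and 0.25 in wt/wt. Acly was lower in the pericentral tercile of each, by -0.32, -0.34 and -0.14 in the same order, and Acaca by -0.31, -0.22 and -0.18, where the interval left out 0 in flox/flox and not in the other libraries. Srebf1 had 23.5 CPM in the pericentral tercile of flox/flox against 70.5 CPM in that of wt/wt, and 32.5 CPM in the periportal tercile against 80.5 CPM. Its log2 ratio of flox/flox over wt/wt was -1.59 pericentrally, -1.38 in the middle and -1.31 periportally, with intervals that overlapped.

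**Figure D4:**
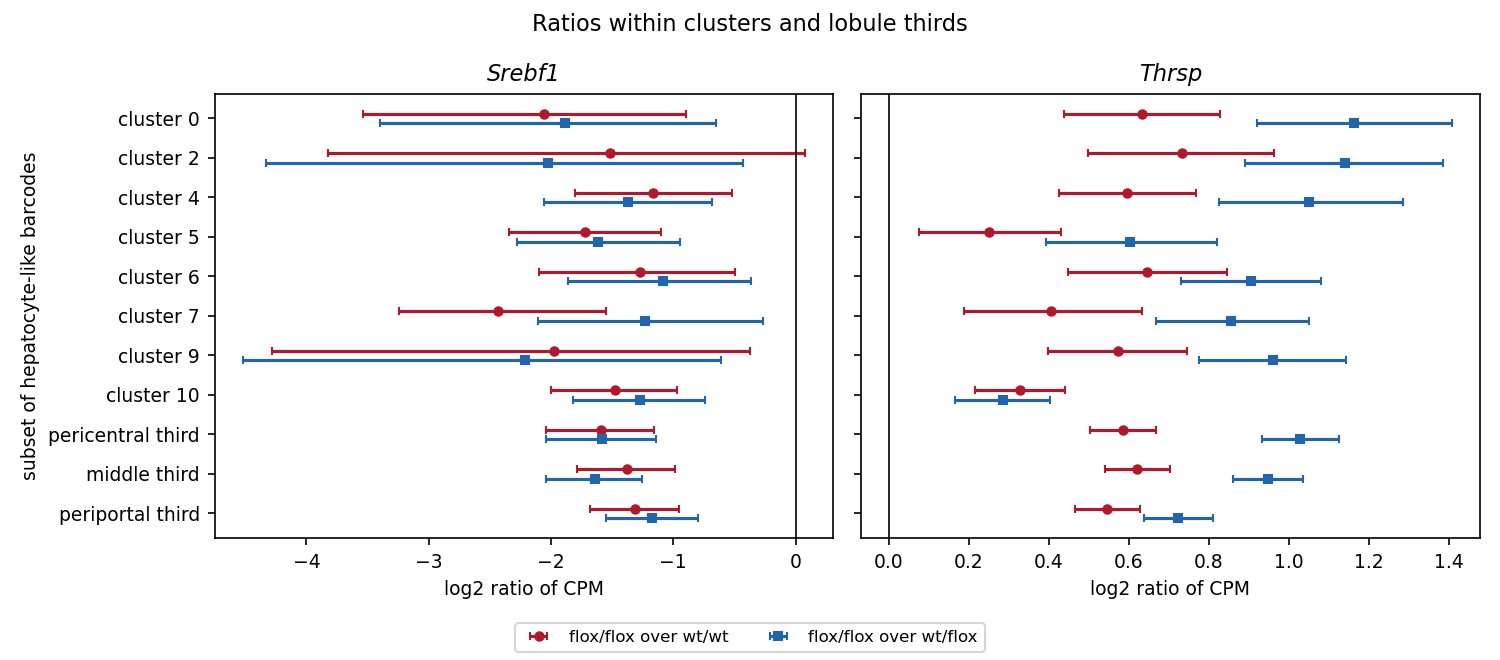
Log2 ratios of CPM (horizontal axis) with exact 95% intervals inside 8 clusters and 3 lobule terciles of hepatocyte-like barcodes, for Srebf1 and Thrsp, in flox/flox over wt/wt and flox/flox over wt/flox. Every Srebf1 point lies below 0 and every Thrsp point above 0.

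Interferon-stimulated genes were much higher in flox/flox, with 26 of 26 measured genes at least 1.5-fold above wt/wt and 24 of 26 above wt/flox, beside 14.3% and 13.4% of all genes, and medians of 2.54 and 1.498 on the log2 scale. Barcodes were therefore also divided by whether they held a UMI of these genes, which 6121 of them did in flox/flox, 3602 in wt/flox and 2851 in wt/wt. Those that did were deeper, with medians of 935 against 811 UMIs in flox/flox, 898 against 840 in wt/flox and 877 against 810 in wt/wt. Srebf1 in flox/flox over wt/wt had a log2 ratio of -1.33 (-1.62 to -1.03) in barcodes with such a UMI and -1.56 (-2.07 to -1.08) in barcodes without. Within flox/flox it stood at 27.8 CPM (187 UMIs) with such a UMI and 25.5 CPM (39 UMIs) without. Mlxipl had -0.85 with and -0.60 without, and Thrsp 0.50 and 0.57.

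RNA of these genes was also found outside hepatocyte-like barcodes, and this bears on every level above. In barcodes of all other named classes, 1905 in flox/flox, 2534 in wt/flox and 1607 in wt/wt, Alb itself was at 45.1%, 55.8% and 55.4% of its hepatocyte-like CPM. Thrsp was at 61.8%, 63.3% and 59.9% of its own, Scd1 at 51.1%, 63.3% and 62.5%, and Fasn at 77.0%, 73.2% and 65.7%. Mlxipl was lower, at 34.4%, 37.1% and 31.0%. Srebf1 there had 22.7 CPM in flox/flox, 46.3 CPM in wt/flox and 66.2 CPM in wt/wt, which is 83.0%, 61.6% and 90.7% of its hepatocyte-like level. The share of T-like barcodes with a Srebf1 UMI was 1.86% (0.93% to 3.31%) in flox/flox, 3.73% (2.26% to 5.76%) in wt/flox and 6.99% (4.48% to 10.3%) in wt/wt, at median depths of 966.5, 963.5 and 988 UMIs. In wt/wt this was not below the hepatocyte-like share, so a UMI of Srebf1 in a single barcode does not mark that cell as its source. Pooled over the other classes, Srebf1 in flox/flox over wt/wt had a log2 ratio of -1.54 (-2.05 to -1.06), Thrsp 0.63 (0.50 to 0.75), Scd1 -0.76 (-0.81 to -0.71) and Mlxipl -0.50 (-0.91 to -0.09). These 4 ratios had the sign they had in hepatocyte-like barcodes, but other ratios did not. Scd1 in flox/flox over wt/flox was -0.11 (-0.17 to -0.06) in the other classes and 0.19 in hepatocyte-like barcodes, and Acly in flox/flox over wt/wt was -0.09 (-0.27 to 0.09) and 0.08. The Srebf1 ratio of wt/flox over wt/wt stood at -0.52 (-0.89 to -0.14) there, beside 0.04 in hepatocyte-like barcodes. Free RNA in the droplets, doublets and the cells' own expression cannot be told apart here.

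Genes that control or surround the pathway were taken from 8 further lists. Of 20 genes of SREBP processing and control, 1 was higher and 1 lower in flox/flox than in wt/wt, with a median log2 ratio of -0.16, and 2 were higher and 0 lower than in wt/flox. Over all genes 14.3% were higher and 7.42% lower than in wt/wt, and 13.4% and 9.72% than in wt/flox, so this list held a smaller share than all genes in each case. Scap, the escort that carries SREBP precursors to the Golgi, was the lower one, at 44.2 CPM in flox/flox, 48.4 CPM in wt/flox and 69.3 CPM in wt/wt. Lpin1, a phosphatidate phosphatase that fasting is known to raise in liver, was the higher one, at 1484 CPM in flox/flox, 150 CPM in wt/flox and 741 CPM in wt/wt. In log2 terms flox/flox stood 1.00 above wt/wt and 3.30 above wt/flox, and wt/flox over wt/wt stood at -2.30. Usf1, a factor that binds E-boxes at lipogenic promoters, had -0.54 over wt/wt.

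Insulin and AMPK signalling gave 2 of 19 genes higher and 1 lower in flox/flox than in wt/wt, and 2 higher and 2 lower in each of the other comparisons. These shares lie near those over all genes, 14.3% higher and 7.42% lower in flox/flox than in wt/wt, 13.4% and 9.72% than in wt/flox, and 9.94% and 6.96% in wt/flox than in wt/wt. Irs2, an insulin receptor substrate that insulin itself lowers, had 19.6 CPM in flox/flox, 81.1 CPM in wt/flox and 24.1 CPM in wt/wt. Irs1, its relative, had a log2 ratio of -0.65 in flox/flox over wt/wt and -1.10 over wt/flox. Foxo1, the transcription factor that insulin holds out of the nucleus, had 75.7 CPM in flox/flox, 28.7 CPM in wt/flox and 58.4 CPM in wt/wt. Pik3r1, a regulatory subunit of phosphoinositide kinase, and Prkaa1, a catalytic subunit of AMPK, had 0.76 and 0.91 over wt/wt.

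Of 14 measured genes of citrate and NADPH supply, 3 were higher and 1 lower in flox/flox than in wt/wt, beside 14.3% and 7.42% of all genes. The pentose phosphate dehydrogenases G6pdx and Pgd, which make NADPH, had 58 and 408 UMIs in flox/flox, 26 and 178 in wt/flox, and 26 and 189 in wt/wt. Their log2 ratios were 1.08 (0.39 to 1.81) and 1.03 (0.78 to 1.29) against wt/wt and 0.95 and 0.99 against wt/flox. Aacs, which activates acetoacetate, had 0.95 against wt/wt and -0.01 against wt/flox, and Acss2, which activates acetate, had -0.37 and 0.19. Of 15 genes of glycolysis and fructose use, 3 were higher and 0 lower in flox/flox than in wt/wt, and 2 and 0 than in wt/flox, where 13.4% and 9.72% of all genes were. Txnip, a gene that glucose raises through ChREBP and its relatives, had 64.1 CPM in flox/flox, 11.0 CPM in wt/flox and 10.6 CPM in wt/wt, which was 2.60 (2.26 to 2.95) on the log2 scale against wt/wt. Slc2a2, the hepatocyte glucose transporter, had 266 CPM in flox/flox, 143 CPM in wt/flox and 128 CPM in wt/wt. Tkfc, a fructose pathway kinase, had 0.60 over wt/wt. Pfkfb1, which sets fructose bisphosphate levels, had -0.13 in flox/flox over wt/wt and -0.48 in wt/flox over wt/wt.

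Among 18 measured genes of other fatty acid synthesis, elongation and desaturation, 2 were higher and 1 lower in flox/flox than in wt/wt, and 3 higher and 2 lower than in wt/flox. Of all genes, 14.3% were higher and 7.42% lower than in wt/wt, and 13.4% and 9.72% than in wt/flox. Elovl3, an elongase of long saturated chains, had 192 CPM in flox/flox, 402 CPM in wt/flox and 477 CPM in wt/wt, so that flox/flox stood at -1.31 (-1.40 to -1.23) against wt/wt and -1.07 against wt/flox on the log2 scale. Scd2, a desaturase close in sequence to Scd1, rested on 35 UMIs in flox/flox, 9 in wt/flox and 12 in wt/wt, at 1.47 (0.49 to 2.55) over wt/wt. Mid1ip1, whose protein pairs with that of Thrsp and activates acetyl-CoA carboxylase, had 30.6 CPM in flox/flox, 69.1 CPM in wt/flox and 42.3 CPM in wt/wt, and so did not follow Thrsp. Fads6 had 0.54 against wt/wt and 0.73 against wt/flox, and the desaturase Fads2 had -0.18 and 0.32. Of 19 measured genes of triglyceride and phospholipid assembly, 3 were higher and 1 lower in flox/flox than in wt/wt, and 5 higher and 2 lower than in wt/flox, beside the same shares over all genes. In wt/flox over wt/wt, 2 were higher and 4 lower, beside 9.94% and 6.96% of all genes. Gpat3, an acyltransferase of the first step, had 52 UMIs in flox/flox, 7 in wt/flox and 7 in wt/wt. Mttp, which loads lipid on to lipoproteins, had 113 CPM in flox/flox, 84.0 CPM in wt/flox and 67.2 CPM in wt/wt. Acsl4, a ligase of polyunsaturated fatty acids, had 0.52 over wt/wt, and in wt/flox over wt/wt the phosphatase Lpin2 had -1.43 and the triglyceride lipase Pnpla2 -0.87.

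Of 17 genes of fasting and gluconeogenesis, the state opposed to lipogenesis, 9 were higher and 0 lower in flox/flox than in wt/flox, 0 were higher and 9 lower in wt/flox than in wt/wt, and 3 were higher and 2 lower in flox/flox than in wt/wt. Of all genes, 13.4% were higher and 9.72% lower in flox/flox than in wt/flox, 9.94% and 6.96% in wt/flox than in wt/wt, and 14.3% and 7.42% in flox/flox than in wt/wt. Angptl4, a lipoprotein lipase inhibitor that fasting raises, had 160 CPM in flox/flox, 29.0 CPM in wt/flox and 100 CPM in wt/wt. Fgf21, a hormone of the fasted liver, had 40 UMIs in flox/flox, 1 in wt/flox and 13 in wt/wt. G6pc, which releases glucose, had 519 CPM in flox/flox, 385 CPM in wt/flox and 273 CPM in wt/wt, and the amino acid enzyme Tat had 2347 CPM, 1780 CPM and 3813 CPM in the same order. The feeding state and the time of day of collection are not given in the sources used here. Of 18 clock genes, 5 were higher and 4 lower in flox/flox than in wt/wt, 7 and 6 than in wt/flox, and 3 and 6 in wt/flox than in wt/wt, beside the same shares over all genes. Cry1, a clock repressor, had 10.5 CPM in flox/flox, 36.2 CPM in wt/flox and 25.7 CPM in wt/wt. Npas2, a clock activator, had 4 UMIs in flox/flox, 49 in wt/flox and 29 in wt/wt, and Ciart, a clock repressor, had 98, 3 and 33 in the same order. Per2 had 25 UMIs in flox/flox, 63 in wt/flox and 23 in wt/wt. Srebf1 and Thrsp are among the liver genes known to vary over the day and with feeding, and the part of either in these values was not tested.

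**Figure D5:**
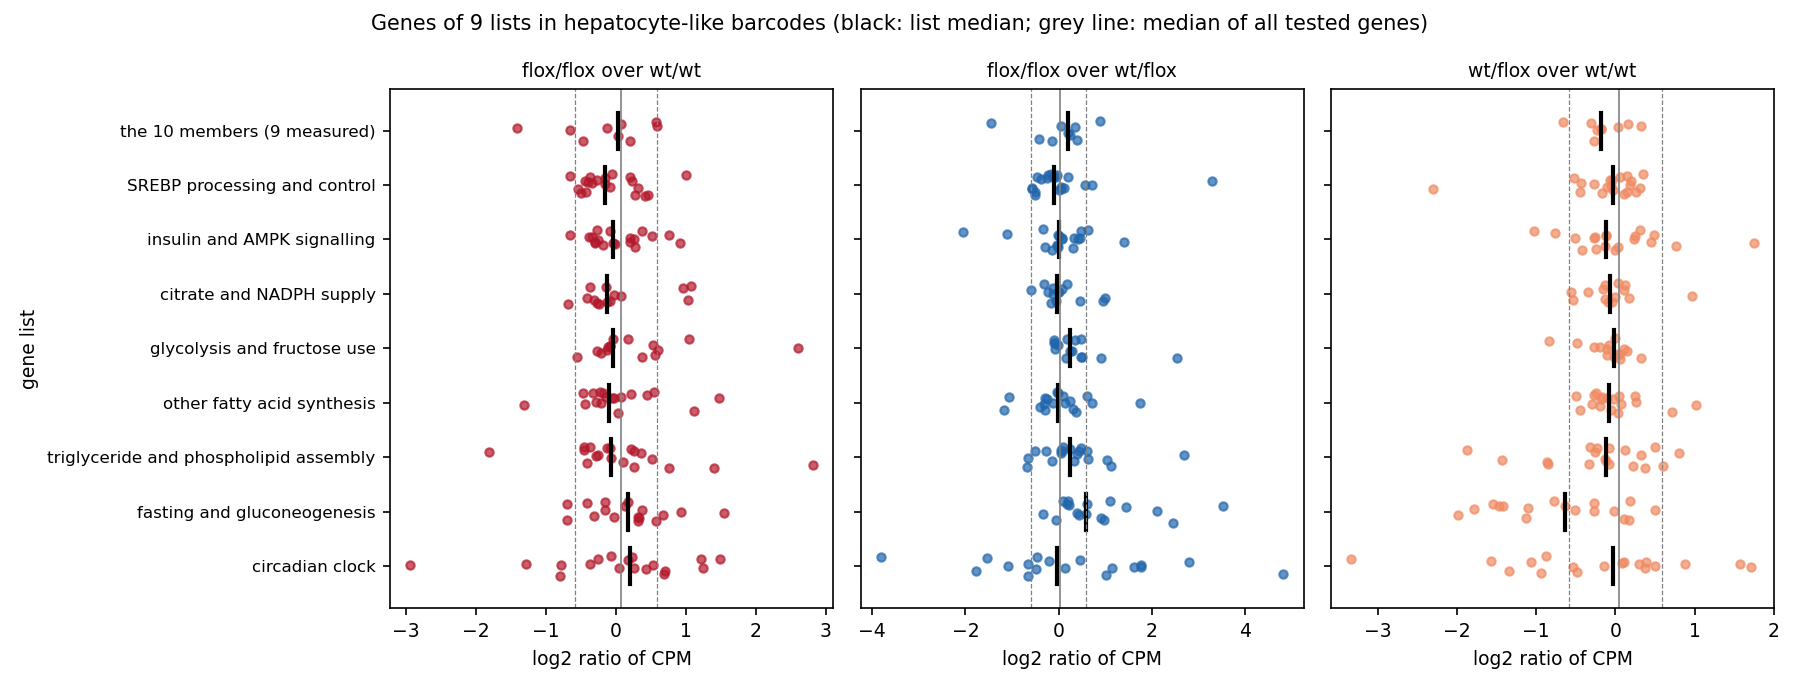
Log2 ratios of CPM (horizontal axis) of the measured genes in 9 lists, 1 point a gene, for the 3 comparisons; black bars are list medians, grey solid lines the median of all 11356 genes and dashed lines 1.5-fold. Most list medians lie within 0.25 of 0, and the fasting list stands at 0.59 in flox/flox over wt/flox and -0.64 in wt/flox over wt/wt.

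The genes whose pattern was most like that of Srebf1 were sought among 8440 genes by the root mean square difference of centred log2 CPM over 6 values, the 3 libraries each under and at or over 0.5% Malat1 plus Neat1. The 5 nearest were Hnf4aos at 0.17, Tspan33 at 0.20, Wrap73 at 0.21, Hsd3b2 at 0.24 and Cyp2c38 at 0.27. Hnf4aos, a noncoding RNA antisense to Hnf4a, had 5.57 CPM in flox/flox, 14.2 CPM in wt/flox and 12.1 CPM in wt/wt. Hsd3b2, a hydroxysteroid dehydrogenase with close relatives among which counting may split reads, had 18.3 CPM in flox/flox, 42.1 CPM in wt/flox and 33.8 CPM in wt/wt. None of the 5 belongs to the lists above.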

How the data were processed

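Single-cell RNA libraries of perfused, Percoll-purified liver cells were made with a droplet 3' kit, per the labels' protocols. The deposited matrix holds whole UMI counts, written by Cell Ranger 6.1.1 per the file headers, and the submitters' processing notes name Cell Ranger, Seurat and mm10. Whether intronic reads were counted is not given in the sources used here. Each library holds 10000 barcodes with at least 636 UMIs, 9744380 to 10756790 UMIs in all.

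Barcodes with at least 500 UMIs, 250 genes and at most 40% mitochondrial UMIs were scaled to 10000, log-transformed and clustered in scanpy 1.11.5 (2000 variable genes, 30 components, 15 neighbours, Leiden at resolution 1; Python 3.11.15). A cluster took another class's name with at least 3 of its markers at 4-fold in at least 5% of barcodes and 1 among the 10 leading genes, and was otherwise hepatocyte-like when 8 of 12 hepatocyte markers were seen in 50% of barcodes. Every cluster met this last rule, with 11 markers in the T-like and 10 in the Kupffer-like cluster. The hepatocyte-like class is thus set by the lack of other classes' markers. The thresholds of this naming were chosen after the data had been seen. No doublets were removed.

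UMIs were summed per library. CPM have exact Poisson intervals, log2 ratios exact conditional binomial intervals and shares exact Clopper-Pearson intervals. Only the ratio intervals were checked, on simulated Poisson counts, which hold counting error alone. Counts under 3 were set to 3 in ratios, and no ratio was given with both at or under 3. A gene needed 20 UMIs over the 3 libraries. Beyond the 10 members, the text names, per list, the 3 genes with the largest ratio of flox/flox over wt/wt and the 2 with the largest of wt/flox over wt/wt, among those with 50 UMIs; 1 gene under this rule is not reported here. Members and lists were chosen with earlier results of these data known. Positions are from GENCODE M21. Alternatives included edgeR 4.0.16 TMM scaling (R 4.3.3).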

Additional observations from a re-analysis of the deposited data

How the results depend on the processing

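No paired analysis was possible because each genotype has 1 library, and leaving out a replicate was not possible for the same reason. Each log2 ratio was computed under 13 other settings, and no ratio past 1.5-fold in the main setting took the opposite sign. Fasn, within 1.5-fold there, ranged from -0.61 to 0.35 in flox/flox over wt/flox and from -0.40 to 0.73 in wt/flox over wt/wt. Srebf1 ranged from -1.50 to -0.79 in flox/flox over wt/wt and from -1.57 to -1.04 over wt/flox, smallest at a minimum of 2000 UMIs. Thrsp ranged from 0.24 to 0.67 and from 0.29 to 1.07, and Mlxipl from -0.85 to -0.44 over wt/wt. The summed log2 ratio of flox/flox over wt/wt was -0.27, against -0.22 at 1000 UMIs, 0.14 at 2000 UMIs, -0.28 at 10% mitochondrial UMIs, -0.22 without mitochondrial UMIs, -0.32 with median-of-ratios factors, -0.35 with TMM, -0.21 thinned, -0.24 under and -0.36 at or over 0.5% Malat1 plus Neat1. Over wt/flox it was 0.26, against 0.39 at 2000 UMIs, 0.24 at 10% mitochondrial UMIs, 0.31 without mitochondrial UMIs, 0.23 with median-of-ratios factors, 0.22 with TMM, 0.29 thinned, 0.32 under and 0.010 at or over 0.5%. In wt/flox over wt/wt it was -0.53, against -0.48 at 1000 UMIs, -0.25 at 2000 UMIs, -0.56 with median-of-ratios factors, -0.57 with TMM, -0.50 thinned, -0.56 under and -0.37 at or over 0.5%. Of the 10 genes, the 2 lower in flox/flox than in wt/wt became 1 at 2000 UMIs, 1 at 10% mitochondrial UMIs and 1 at a fold of 2. The 0 higher became 1 with marker-chosen barcodes, 1 at 1000 UMIs, 1 at 2000 UMIs, 1 with barcode means, 1 thinned and 1 under 0.5%, and 2 at 10% mitochondrial UMIs and 2 without mitochondrial UMIs. Over wt/flox the 1 lower became 2 at 2000 UMIs and 2 at or over 0.5%, and the 1 higher became 0 at or over 0.5% and 0 at a fold of 2. In wt/flox over wt/wt the 1 lower became 0 at 2000 UMIs and 0 at a fold of 2, and the 0 higher became 1 at 2000 UMIs and 1 at or over 0.5%. The cause of these shifts was not tested. At 2000 UMIs, 376 barcodes were left in flox/flox, 101 in wt/flox and 118 in wt/wt. At 1000 UMIs and in the thinned setting, 2906, 2315 and 2376 were left in the same order. Other scaling moved the median gene by at most 0.083. Leaving out the mitotic-led cluster 8 and the 2 clusters under 150 barcodes, chosen after seeing the data, left the counts as they were and moved the sums by less than their intervals. With at least 50 UMIs a gene, 5 counts of the wider lists moved by more than 1.5 times, other fatty acid synthesis higher in flox/flox than in wt/wt from 2 to 1 and in wt/flox than in wt/wt from 2 to 1, triglyceride assembly lower in flox/flox than in wt/wt from 1 to 0 and higher in wt/flox than in wt/wt from 2 to 1, and clock genes higher in flox/flox than in wt/wt from 5 to 3. Depth limits Pnpla3, and intervals cover counting error only, since UMIs of 1 library do not show how animals vary.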

Other observations

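In hepatocyte-like barcodes of at least 1000 UMIs, each thinned to 1000, the mean number of the 10 genes seen was 2.61 in flox/flox, 2.43 in wt/flox and 2.57 in wt/wt. Of these barcodes, 0.723%, 1.21% and 0.295% held none of the 10 genes. Across these barcodes, 2906 in flox/flox, 2315 in wt/flox and 2376 in wt/wt, Pearson's r between any pair of the 9 measured genes lay between -0.146 and 0.121 in flox/flox, between -0.075 and 0.128 in wt/flox and between -0.150 and 0.073 in wt/wt. All barcodes of a library share its preparation and depth, and counts this sparse give weak correlations, so these values describe the libraries only.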
